A study of Mus musculus with 4 samples.

Results

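Transcripts of 26 genes of cholesterol synthesis and of its control by the transcription factor SREBP2 were examined in mouse liver, as all rows of the deposited count table whose gene name was on the list, and each was found once among 35275 genes. In pathway order the genes were Acat2, Hmgcs1, Mvk, Pmvk, Mvd, Idi1, Fdps, Ggps1, Fdft1, Sqle, Lss, Cyp51, Tm7sf2, Lbr, Msmo1, Nsdhl, Hsd17b7, Ebp, Sc5d and Dhcr7, followed by Srebf2, Scap, Insig1 and Insig2 of the SREBP2 control and by Stard4 and Npc1l1 of sterol movement. The list does not hold every enzyme of the route. Of the 26 genes, 25 reached 1 CPM (TMM-scaled counts for each 1e+06 counted) in 2 or more libraries, and Npc1l1, a sterol uptake protein of the cell surface, had at most 4 counts in any library and was not tested.

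The study asked how interval exercise training (IT) affects systemic AApoAII amyloidosis, in which fibrils of apolipoprotein A-II deposit in organs. The 4 groups were VS (saline vehicle, sedentary), VI (saline vehicle, IT), FS (AApoAII fibrils, sedentary) and FI (AApoAII fibrils, IT), all female mice that carried the amyloidogenic Apoa2c allele, were 26 weeks old and had gone through 16 weeks of training or sedentary housing. The strain is R1.P1-Apoa2c, with SAMR1 as its background, by the methods, but AKR/J with a congenic Apoa2c genotype by the labels. Liver of 4 mice was pooled for each library and there was 1 library per group, so no value below has a replicate error and all intervals cover counting error only. The vehicle mice carry the same allele, and amyloidosis in the fibril mice was induced by injection rather than arising with age. The paper reports less liver amyloid in trained than in sedentary fibril mice. FI and FS thus differ in amyloid load as well as in training. Comparisons by amyloidosis below are of fibril against vehicle injection and do not hold that load constant.

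Total counts were between 23442935 and 28814802, a count of 0 allows up to 0.102 to 0.127 CPM (3 counts), and albumin, the hallmark product of hepatocytes, took 12.1% to 13.6% of the counts. The 8 hepatocyte markers summed to 136000 CPM in VS and 147000 in FS, against 142000 in VI and 158000 in FI, with median log2 ratios of 0.32 in VI against VS and 0.45 in FI against FS, and 1 was called higher with each factor. Alb made up most of the sum (119865 CPM in VS), and the markers differed in direction. Tat had 938 CPM in VS and 2018 in VI, whereas Cyp2e1 had 11182 and 9742. These values are thus not a measure of hepatocyte content. Markers of skeletal muscle summed to 78.5 CPM in VS but to 10.2 in VI, 1.12 in FS and 1.07 in FI over 13 genes, of which Tnnc2 was at 0 in all libraries, so VS stood apart. Kupffer cell markers, of which 7 of 8 were found, summed to between 208 CPM (VS) and 324 CPM (FS), with 260 in VI and 307 in FI. The other marker sums were 2.42 to 4.95 CPM for lymphocytes, 2.12 to 5.39 for neutrophils, 150 to 177 for endothelial, 167 to 200 for stellate and 12.6 to 20.1 for bile duct cells. They were 4.91 to 7.65 CPM for adipocytes (Lep at 0), 36.1 to 78.4 for enterocytes (Alpi, Cdx2 and Sis at 0) and 12.8 to 23.2 for pancreatic acinar cells (Cpb1, Amy2a5 and Pnlip at 0). Each of these last sums came mostly from 1 gene, in VS Fabp4 (6.56 CPM), Fabp2 (78.04) and Cela1 (22.78), and so is not a measure of the cell type. In such bulk tissue fewer cells of a type and less RNA per cell cannot be told apart.

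Cholesterol is built from acetyl-CoA through HMG-CoA, mevalonate and the isoprenoid diphosphates to squalene, which is closed to lanosterol and trimmed to cholesterol by enzymes of the endoplasmic reticulum. SREBP2 is held in that membrane with its escort SCAP by the INSIG proteins when sterols are plentiful, and it travels to the Golgi and is cut free when sterols are scarce, after which it enters the nucleus and switches on most genes of the route. It is known to bind short sterol regulatory elements (SREs) beside sites of NF-Y and Sp1, and the liver is a major site of the synthesis.

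Promoter sequences, 250 bases before to 50 bases after each gene start, were taken from RefSeq on GRCm38.p6 and were found for 22 of the 26 genes in 28 windows. No entry was matched for Fdps, Fdft1, Sqle and Stard4. The letters searched on both strands were TCACNCCAC for the SRE core, CCAAT for the NF-Y box and GGGCGG for the Sp1 box. The exact SRE core was found in 1 gene, Hmgcs1 (4.55% of 22), and in 1.24% of the 32851 promoters of the table, or 1.44% of its 27025 symbols. With at most 1 mismatch it was found in 10 genes (45.5%) and in 26.7% of symbols. CCAAT was found in 20 genes (90.9%) against 41.1% of symbols, and GGGCGG in 19 genes (86.4%) against 38.2%. These shares are descriptions of letters in a window, and 4 of the genes have more than 1 window.

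The bases before the start of 5 genes are shown because their transcripts span the patterns described below: Hmgcs1 held the exact SRE core and was low in FI alone, Mvk and Nsdhl were lower with IT, Ebp was near level and Insig2 was higher with IT. Except for Hmgcs1 they were chosen after the values were seen. Capitals mark the SRE core, CCAAT and GGGCGG on either strand (ATTGG and CCGCCC are the same boxes on the other strand), each line runs 5′ to 3′ along the strand of its gene, and bases inside an annotated gene were left out.
Hmgcs1, chr13:119690101-119690350, plus strand: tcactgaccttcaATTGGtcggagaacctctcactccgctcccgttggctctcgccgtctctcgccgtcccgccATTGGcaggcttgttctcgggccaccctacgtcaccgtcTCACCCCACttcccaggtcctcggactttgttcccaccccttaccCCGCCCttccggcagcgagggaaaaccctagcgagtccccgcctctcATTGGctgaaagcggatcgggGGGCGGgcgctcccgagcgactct
Mvk, chr5:114444060-114444268, plus strand: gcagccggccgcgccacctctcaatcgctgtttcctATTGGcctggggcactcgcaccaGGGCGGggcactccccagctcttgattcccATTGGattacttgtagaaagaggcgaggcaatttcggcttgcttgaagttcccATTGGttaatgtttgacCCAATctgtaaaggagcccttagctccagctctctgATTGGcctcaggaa
Nsdhl, chrX:72918412-72918520, plus strand: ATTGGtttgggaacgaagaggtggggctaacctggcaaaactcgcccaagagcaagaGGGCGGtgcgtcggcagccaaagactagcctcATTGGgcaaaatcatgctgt
Ebp, chrX:8193513-8193762, minus strand: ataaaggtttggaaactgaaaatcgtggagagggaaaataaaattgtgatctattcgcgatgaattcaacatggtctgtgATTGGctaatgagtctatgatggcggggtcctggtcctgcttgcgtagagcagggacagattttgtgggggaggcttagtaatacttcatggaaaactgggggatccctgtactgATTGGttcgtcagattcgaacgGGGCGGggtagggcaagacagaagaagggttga
Insig2, chr1:121332590-121332839, minus strand: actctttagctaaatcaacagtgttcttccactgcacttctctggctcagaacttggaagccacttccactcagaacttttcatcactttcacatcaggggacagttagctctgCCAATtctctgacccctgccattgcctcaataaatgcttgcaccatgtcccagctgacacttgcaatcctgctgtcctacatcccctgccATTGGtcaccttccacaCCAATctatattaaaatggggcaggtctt

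In the stretch shown for Hmgcs1 the SRE core is flanked by CCAAT boxes on both sides. The 209 bases shown for Mvk are the whole space between Mvk and Mmab, which are transcribed away from each other, and 5 of their boxes are CCAAT. Ebp held CCAAT and GGGCGG as well, so that a gene whose level stayed near constant carried the same letters as genes that were lower with IT. For Insig2 the RefSeq table gives 3 starts, and the stretch shown, before the outermost of them, held CCAAT but no GGGCGG.

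Libraries of trained mice held fewer transcripts of the route than those of sedentary mice. This concerns transcripts only, and the paper reports no difference among groups in serum triglyceride, total cholesterol or HDL cholesterol. In an additive fit of IT and amyloidosis to all 11760 genes that passed the filter (edgeR's quasi-likelihood test, p adjusted by the Benjamini-Hochberg method), 8 of the 25 genes were lower with IT and 1 was higher, against 0.663% lower and 0.672% higher over all genes tested (1.34% either way). The lower genes were Mvk, Idi1, Fdps, Cyp51, Msmo1, Nsdhl, Dhcr7 and Stard4, and the higher gene was Insig2. The median coefficient of the 25 genes was −0.58 on the log2 scale and that of all genes was 0, and the coefficient was below 0 in 21 of the 25 genes, against 50% of all genes. At an unadjusted p below 0.05 there were 19 of the 25 genes, against 14.5% of all genes. The fit has 1 residual degree of freedom, so its p-values rest on how far 4 pooled libraries depart from additive changes and not on replicate mice. Without a filter on low counts 15 of the genes were called lower, and 740 of all 19939 genes were called either way. With IT as the sole factor 0 were called, as were 0 of all 11760 genes. Fits of 3 libraries leave 1 library in a group and called few or no genes of any kind. Mvk, Msmo1, Dhcr7 and Stard4 lost the call with any library left out, with coefficients that stayed below 0, and Idi1, Fdps, Cyp51 and Nsdhl lost it without VI and without FI.

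**Figure D1:**
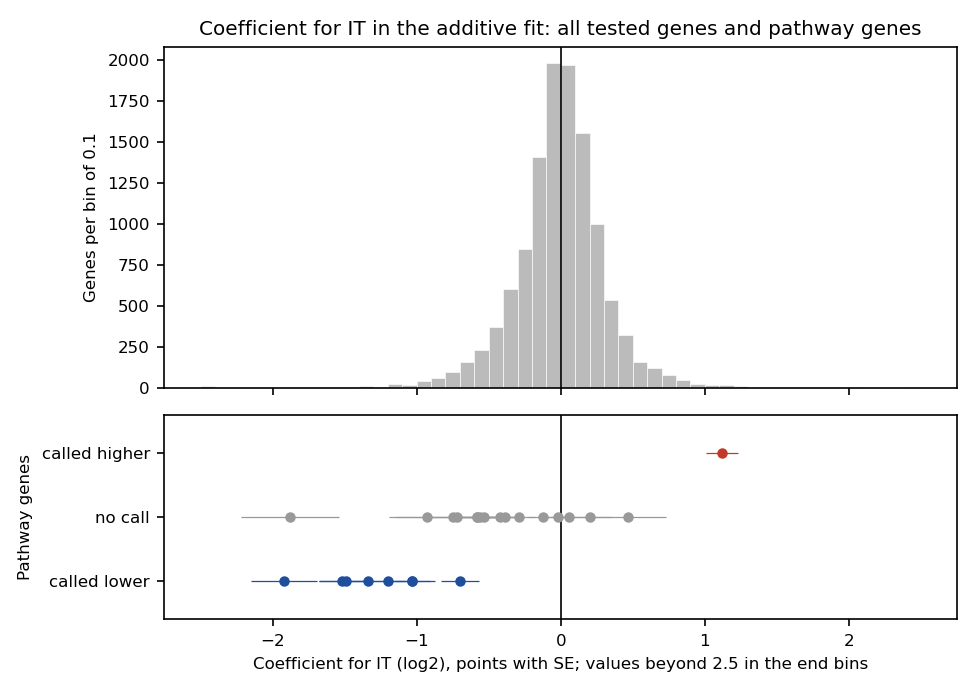
Upper panel, number of genes in bins of 0.1 of the coefficient for IT (log2) over the 11760 genes tested; lower panel, coefficients with SE of the 25 pathway genes by call. The 8 genes called lower lie between −1.92 and −0.70, the gene called higher is Insig2 at 1.12, and the bulk of all genes is centred on 0.

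In pairs of libraries the same counts were 6 genes more than 2-fold lower and 1 higher in VI than in VS, against 1.9% and 1.54% of the 12180 genes that reached 1 CPM in any library. They were 11 genes lower and 1 higher in FI than in FS, against 2.53% and 1.75%. The median log2 ratio over the 25 genes was −0.49 in the vehicle pair and −0.70 in the fibril pair, and 0 in both over all genes. Both trained libraries lay below both sedentary libraries for 17 of the 25 genes, a pattern seen in 17.3% of the 11760 genes, and above both for Lbr and Insig2, against 17.4%. The 95% counting interval of the log2 ratio lay below 0 in both pairs for 18 genes (9.2% of all genes) and above 0 in both for Insig2 (10.3%). The muscle signal of VS moved with the vehicle pair, with a median log2 ratio of −2.86 over the muscle markers. In the fibril pair, where these markers summed to 1.12 CPM in FS and 1.07 in FI, the median was −0.56. In the additive fit 3 of 4 muscle markers tested were called lower with IT, and the part of this signal was not tested.

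**Figure D2:**
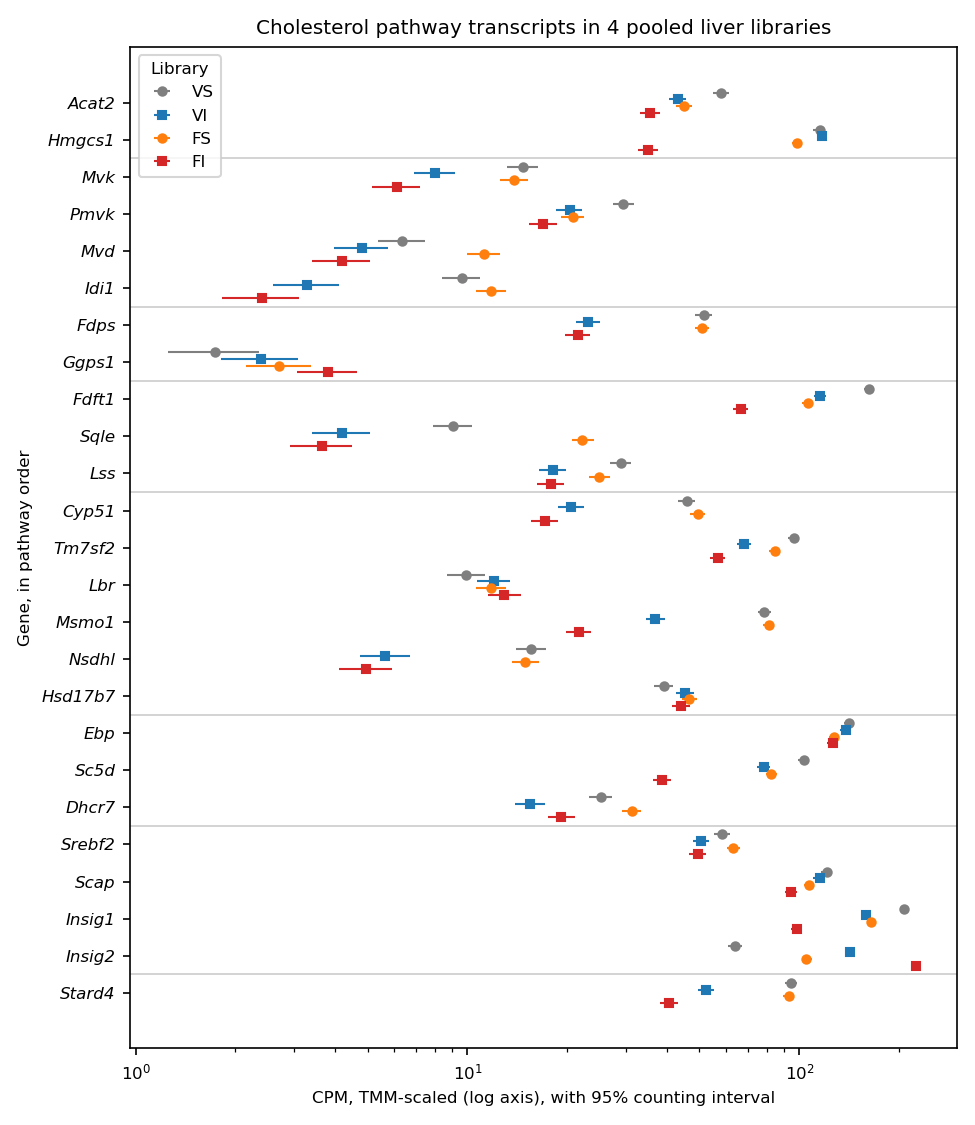
TMM-scaled CPM (log axis) of 25 pathway genes in the 4 libraries, in pathway order from acetyl-CoA at the top, with 95% counting intervals; grey lines part the stages of the route, and Npc1l1, with at most 4 counts, is left out. For most genes both trained libraries (squares) lie to the left of both sedentary ones (circles), while for Insig2 they lie to the right.

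The first steps join acetyl-CoA units to HMG-CoA. Acat2, the acetoacetyl-CoA thiolase of the cytosol, had 58.2 CPM in VS and 45.0 in FS, against 43.0 in VI and 35.5 in FI, with a coefficient for IT of −0.39 ± 0.11 (SE) that did not pass the test (adjusted p = 0.17). Acat2 lies 2487 bases from the closely related Acat3, and the sources used here do not say how reads shared by both were assigned, so its level is uncertain. Hmgcs1, the HMG-CoA synthase of the cytosol, had 115 CPM in VS and 98.3 in FS, against 117 in VI and 35.0 in FI, so that FI alone was low. Its log2 ratio was 0.03 (interval −0.05 to 0.11) in the vehicle pair and −1.49 (−1.60 to −1.38) in the fibril pair, a 2.81-fold lower level. The additive coefficient of Hmgcs1, −0.72 ± 0.42, did not pass the test (adjusted p = 0.55), and leaving out FI turned it to 0.14.

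The next enzymes phosphorylate and decarboxylate mevalonate to the isoprenoid diphosphates. Mvk, mevalonate kinase, had 14.7 CPM in VS and 13.8 in FS, against 7.96 in VI and 6.12 in FI, and was lower with IT (−1.03 ± 0.16, adjusted p = 0.034). Its divergent neighbour Mmab, which encodes an enzyme of cobalamin metabolism and is a known SREBP2 target, had 14.7 CPM in VS and 12.7 in FS, against 7.76 in VI and 6.90 in FI, and was also lower (−0.90 ± 0.15, adjusted p = 0.039). The CPM of both genes thus were near equal in each library, without a correction for length. Pmvk, phosphomevalonate kinase, had 29.5 CPM in VS and 20.8 in FS, against 20.3 in VI and 16.9 in FI, and did not pass the test (−0.42 ± 0.13, adjusted p = 0.22). Mvd, the decarboxylase of mevalonate diphosphate, had 6.35 CPM in VS and 11.2 in FS, against 4.80 in VI and 4.18 in FI, the highest value in FS, and did not pass either (−0.93 ± 0.26, adjusted p = 0.17).

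Idi1, the isomerase that makes dimethylallyl diphosphate, had the lowest coefficient of the route. It stood at 9.61 CPM in VS and 11.8 in FS, against 3.28 in VI and 2.40 in FI, and the trained libraries were 2.92-fold below the sedentary one in vehicle mice and 4.90-fold below it in fibril mice. The coefficient for IT was −1.92 ± 0.23 (adjusted p = 0.012). Its counts were 227 (VS) and 349 (FS) in sedentary and 80 (VI) and 58 (FI) in trained mice, so the intervals of the log2 ratios were wide, −1.94 to −1.18 in the vehicle pair and −2.73 to −1.90 in the fibril pair.

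Fdps, farnesyl diphosphate synthase, had 51.5 CPM in VS and 50.9 in FS, against 23.1 in VI and 21.5 in FI. The ratio was nearly equal in both pairs, 2.23-fold and 2.37-fold lower with IT, and the coefficient was −1.20 ± 0.12 (adjusted p = 0.006). Ggps1, geranylgeranyl diphosphate synthase, which leads away from sterols towards protein prenylation, had 1.74 CPM in VS and 2.71 in FS, against 2.38 in VI and 3.80 in FI, with a coefficient of 0.47 ± 0.26 (adjusted p = 0.45). Per length of transcript, Fdps exceeded Ggps1 by a ratio of 56.5 in VS and 35.9 in FS, and of 18.5 in VI and 10.8 in FI. The Ggps1 counts were 41 to 92, and 170 bases of the gene overlap Arid4b on the opposite strand.

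Squalene and lanosterol formation had no gene called in the edgeR fit, where all 3 coefficients were negative, but over 9 settings that use all libraries (other scalings, filters, tools and models) Fdft1 and Sqle were called in 4 and Lss in 2. Fdft1, squalene synthase, had 162 CPM in VS and 106 in FS, against 115 in VI and 66.5 in FI, with a coefficient for IT of −0.58 ± 0.11 (adjusted p = 0.061). It overlaps Ctsb, a gene of 14863 to 18509 counts, by 767 bases on the opposite strand, and without stated strand counting reads of the shared bases cannot be told apart. Sqle, squalene epoxidase, a rate-controlling oxygenase, had 9.02 CPM in VS and 22.2 in FS, against 4.19 in VI and 3.64 in FI. FS was far above the other libraries, and IT went with a 2.15-fold lower level in vehicle mice and a 6.08-fold lower level in fibril mice. The additive coefficient of −1.88 ± 0.34 for Sqle missed the threshold (adjusted p = 0.061). Lss, lanosterol synthase, had 29.0 CPM in VS and 24.9 in FS, against 18.1 in VI and 17.8 in FI, with a coefficient of −0.58 ± 0.13 (adjusted p = 0.098).

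The stage from lanosterol to zymosterol held 3 of the 8 lower genes. Cyp51, the demethylase that acts first on lanosterol, had 45.8 CPM in VS and 49.4 in FS, against 20.5 in VI and 17.1 in FI, and was lower with IT (−1.34 ± 0.13, adjusted p = 0.0063). Msmo1, the methylsterol oxidase, had 78.4 CPM in VS and 80.8 in FS, against 36.8 in VI and 21.7 in FI, and was lower as well (−1.49 ± 0.19, adjusted p = 0.024). Nsdhl, the sterol dehydrogenase that works with MSMO1 on the methyl groups of the sterol ring, had 15.5 CPM in VS and 14.9 in FS, against 5.66 in VI and 4.96 in FI, with a coefficient of −1.52 ± 0.16 (adjusted p = 0.007). In all 3 genes the sedentary libraries were close to each other and well above both trained ones. Hsd17b7, the ketosterol reductase of the same complex, did not follow them, with 39.1 CPM in VS and 46.6 in FS, against 45.2 in VI and 44.0 in FI, and a coefficient of 0.06 ± 0.12 (adjusted p = 0.87).

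Reduction of the sterol ring after CYP51 can be carried out by Tm7sf2 or Lbr. Tm7sf2, the reductase of the endoplasmic reticulum, had 96.2 CPM in VS and 84.2 in FS, against 68.3 in VI and 56.7 in FI, with a coefficient of −0.53 ± 0.11 (adjusted p = 0.069). Lbr, the lamin B receptor, which has the same activity at the nuclear envelope, had 9.91 CPM in VS and 11.8 in FS, against 12 in VI and 12.9 in FI, with a coefficient of 0.20 ± 0.15 (adjusted p = 0.60). Per length the Tm7sf2 level was 23 times that of Lbr in VS and 16.9 times in FS, against 13.5 times in VI and 10.4 times in FI. Tm7sf2 shares 532 bases with Vps51 on the same strand.

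The closing steps run from zymosterol to cholesterol. Ebp, the sterol isomerase, had the highest mean FPKM of the 26 genes (76.3) and the flattest profile, with 141 CPM in VS and 127 in FS, against 138 in VI and 126 in FI, and a coefficient for IT of −0.02 ± 0.11 (adjusted p = 0.95). The counting intervals of its log2 ratios, −0.10 to 0.04 in the vehicle pair and −0.09 to 0.05 in the fibril pair, both held 0. Sc5d, lathosterol oxidase, had 103 CPM in VS and 82.4 in FS, against 78.0 in VI and 38.5 in FI, lowest in FI, with a coefficient of −0.75 ± 0.17 (adjusted p = 0.11). Dhcr7, the dehydrocholesterol reductase, had 25.2 CPM in VS and 31.3 in FS, against 15.4 in VI and 19.2 in FI, and was lower with IT by −0.70 ± 0.13 (adjusted p = 0.047), but the adjusted p was 0.057 with a filter at 5 CPM and 0.074 with the Wald test of DESeq2. It was the only one of the 8 called genes whose lowest library was VI.

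**Figure D3:**
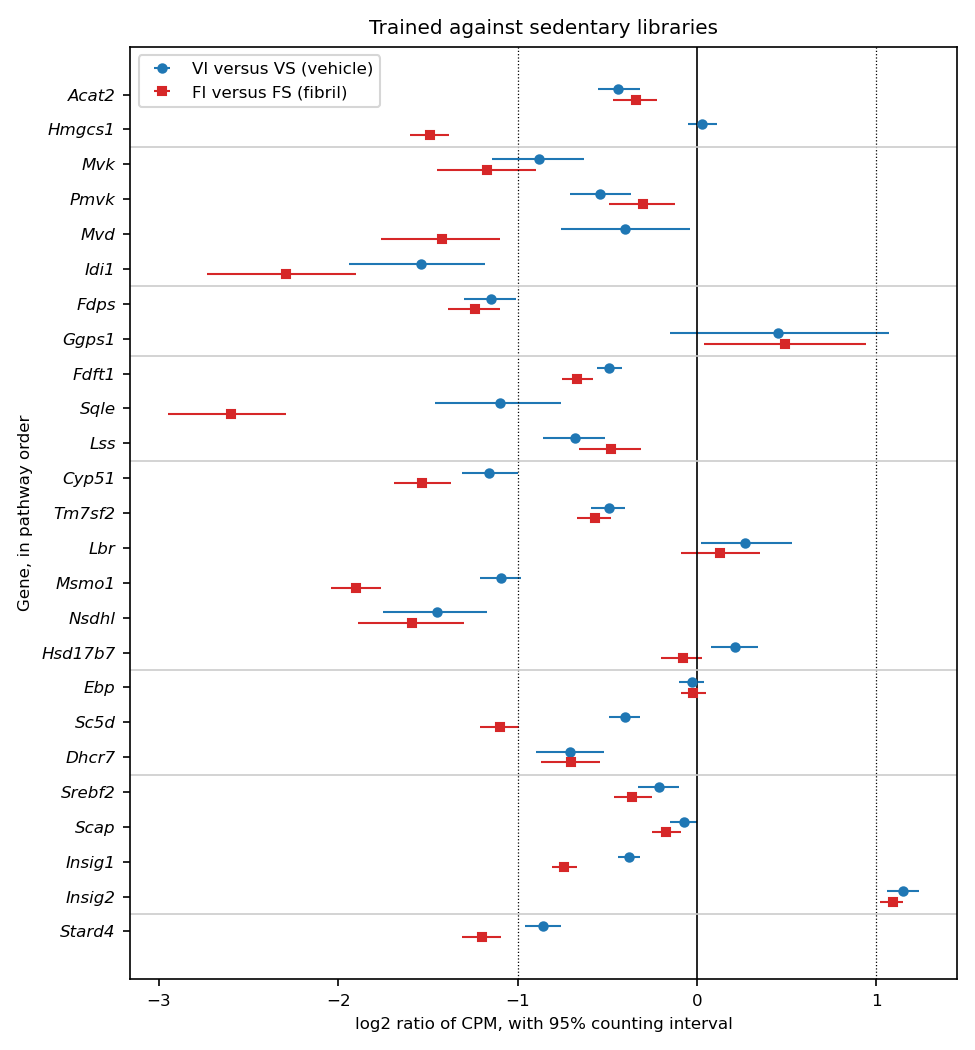
Log2 ratio of CPM in trained against sedentary libraries for 25 genes in pathway order, circles for VI against VS and squares for FI against FS, with 95% counting intervals; dotted lines mark 2-fold. Idi1, Sqle, Cyp51, Msmo1, Nsdhl and Fdps lie left of or at the lower line in both pairs. Hmgcs1, Mvk, Mvd, Sc5d and Stard4 do so in the fibril pair alone, and Insig2 lies right of the upper line in both.

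The genes that control SREBP2 differed in direction, and of 4 only Insig2 was called. Srebf2, which encodes SREBP2, had 58.5 CPM in VS and 63.3 in FS, against 50.4 in VI and 49.4 in FI, with a coefficient for IT of −0.29 ± 0.11 (adjusted p = 0.30). Scap, its escort and sterol sensor, had 121 CPM in VS and 107 in FS, against 115 in VI and 94.6 in FI, with a coefficient of −0.12 ± 0.11 (adjusted p = 0.68). Neither gene reached a 2-fold difference in any pair.

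The INSIG paralogues, both of which hold SCAP back, had reversed orders of the libraries, VS, FS, VI, FI from high to low for Insig1 and from low to high for Insig2. Insig1, itself a target of SREBP2, had 207 CPM in VS and 164 in FS, against 159 in VI and 98.3 in FI, with a coefficient for IT of −0.56 ± 0.13 (adjusted p = 0.10) and for amyloidosis of −0.51 ± 0.13 (adjusted p = 0.067). Insig2, whose liver transcript is known to be repressed by insulin, had 64.1 CPM in VS and 105 in FS, against 142 in VI and 224 in FI. It was higher with IT (1.12 ± 0.11, adjusted p = 0.0063) and higher with amyloidosis (0.69 ± 0.11, adjusted p = 0.017), and neighbours in its order had no overlap of counting intervals, whereas FS and VI overlapped for Insig1. The Insig2 calls were lost with any library left out, when its coefficient was 0.75 to 1.52 for IT and 0.03 to 1.36 for amyloidosis. The IT ratio of Insig2 was 2.22-fold in vehicle and 2.13-fold in fibril mice. Within a library the ratio of Insig2 to Insig1 per length was 0.309 (0.292 to 0.328) in VS, 0.892 (0.852 to 0.935) in VI, 0.641 (0.613 to 0.671) in FS and 2.28 (2.17 to 2.39) in FI. Insig2 thus exceeded Insig1 in FI and was below it in the other 3 libraries, a ratio that needs no scaling between libraries. Transcripts from the 3 Insig2 starts were counted together.

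By the positions deposited with the counts, on mm10 by the submitters' processing notes, the 2 genes lie at chr5:28071363-28078662 (Insig1, plus strand) and chr1:121304353-121332589 (Insig2, minus strand). Of the enzymes called lower, Mvk lies at chr5:114444269-114460591, Idi1 at chr13:8885501-8892451, Fdps at chr3:89093592-89101967 and Cyp51 at chr5:4081145-4104746. Msmo1 lies at chr8:64718139-64733792, Nsdhl at chrX:72918557-72958514 and Dhcr7 at chr7:143823145-143848410.

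**Figure D4:**
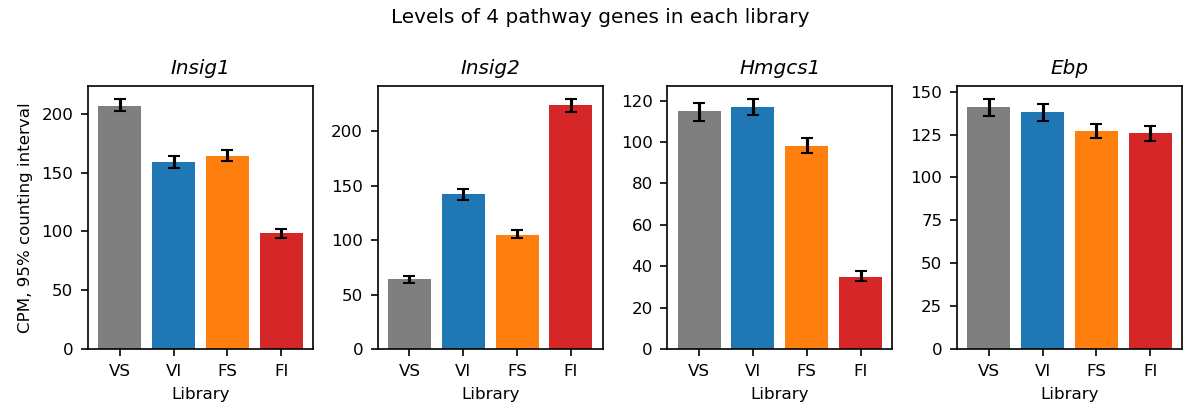
TMM-scaled CPM of Insig1, Insig2, Hmgcs1 and Ebp in the 4 libraries, 1 pooled library per bar, with 95% counting intervals. Insig1 was lowest (98.3) and Insig2 highest (224) in FI, Hmgcs1 was low in FI alone (35.0) and Ebp lay between 126 and 141.

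Stard4, a cytosolic protein that moves sterols between membranes and an SREBP2 target, had 94.6 CPM in VS and 92.9 in FS, against 52.2 in VI and 40.4 in FI. It was lower with IT (−1.03 ± 0.12, adjusted p = 0.012), with a 1.81-fold lower level in the vehicle pair and a 2.30-fold lower level in the fibril pair. Summed over the 20 enzymes, the route had 1040 CPM in VS and 935.8 in FS, against 779.5 in VI and 554.2 in FI, and without Ebp, its most abundant enzyme per length, 899.7 in VS and 808.6 in FS, against 641.4 in VI and 428.3 in FI.

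Per length of transcript the members spanned a wide range. Mean FPKM was 76.3 for Ebp, 58.5 for Insig1, 51.1 for Tm7sf2 and 49.3 for Insig2 at the upper end. At the lower end were Idi1 with 2.26, Sqle with 2.21, Ggps1 with 1.12 and Npc1l1 with 0.0225. Among the 8 genes called lower the mean FPKM ran from 2.26 for Idi1 to 29.8 for Fdps, so calls were not limited to abundant transcripts.

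Whether IT went with a different change in fibril than in vehicle livers could not be tested, because the full model leaves no residual degree of freedom. Values with counting intervals are given, in which training and the lower amyloid load reported for trained fibril mice cannot be told apart. The log2 ratio of FI against FS minus that of VI against VS was below 0 in 19 of the 25 genes, against 51.2% of all genes, with medians of −0.14 and −0.01. Its interval lay below 0 in 11 genes (19.9% of all genes), above 0 in 0 (19.4%) and held 0 in 14. The difference was more than 2-fold lower in 3 genes, against 2.98% of all genes. It was −1.52 (−1.65 to −1.38) for Hmgcs1, −1.5 (−1.97 to −1.03) for Sqle and −1.01 (−1.49 to −0.54) for Mvd. For Sqle and Mvd the FS level was the high one of the 4 libraries, whereas for Hmgcs1 the FI level was the low one. FI was the lowest library for 20 of the 25 genes, a place that FI took in 24.7% of all genes, and the exceptions were Ggps1, Lbr, Hsd17b7, Dhcr7 and Insig2.

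With amyloidosis few genes of the route were called. In the additive fit Fdft1 was lower (−0.71 ± 0.11, adjusted p = 0.017) and Insig2 was higher, 1 gene each of 25, against 1.96% lower and 2.64% higher over all genes. The median coefficient was −0.12, and 0.02 over all genes, and 8 of the 25 genes had an unadjusted p below 0.05, against 21.1% of all genes. In FS against VS, 0 genes were more than 2-fold lower (2.2% of all genes) and Sqle alone was more than 2-fold higher (3.6%), by 2.46-fold. The muscle signal of VS (a median log2 ratio of −6.25 over the muscle markers in FS against VS, with 3 of 4 tested called lower with amyloidosis) and the Kupffer cell markers (a median of 0.69, with 1 of 7 called higher) moved with this pair, and their part was not tested. The interval of the log2 ratio lay below 0 for 10 genes (25.7% of all genes) and above 0 for 9 (27.2%), with a median of −0.03.

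The log2 ratio was below 0 for 14 of the 25 genes in FS against VS (48% of all genes) and for 21 in FI against VI (48.7%). In FI against VI, Hmgcs1 was 3.34-fold and Sc5d 2.03-fold lower, 2 genes against 1.95% of all genes, and 0 genes were more than 2-fold higher (2.59%). The interval lay below 0 for 13 genes (23.8% of all genes) and above 0 for 3 (23.1%), which were Ggps1, Dhcr7 and Insig2, with a median of −0.27. Fdft1 was 1.54-fold lower in FS than in VS and 1.74-fold lower in FI than in VI, and its call was lost with any library left out (−1.06 to −0.39). These pairs share libraries with the IT pairs, so a high FS or a low FI value enters both.

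**Figure D5:**
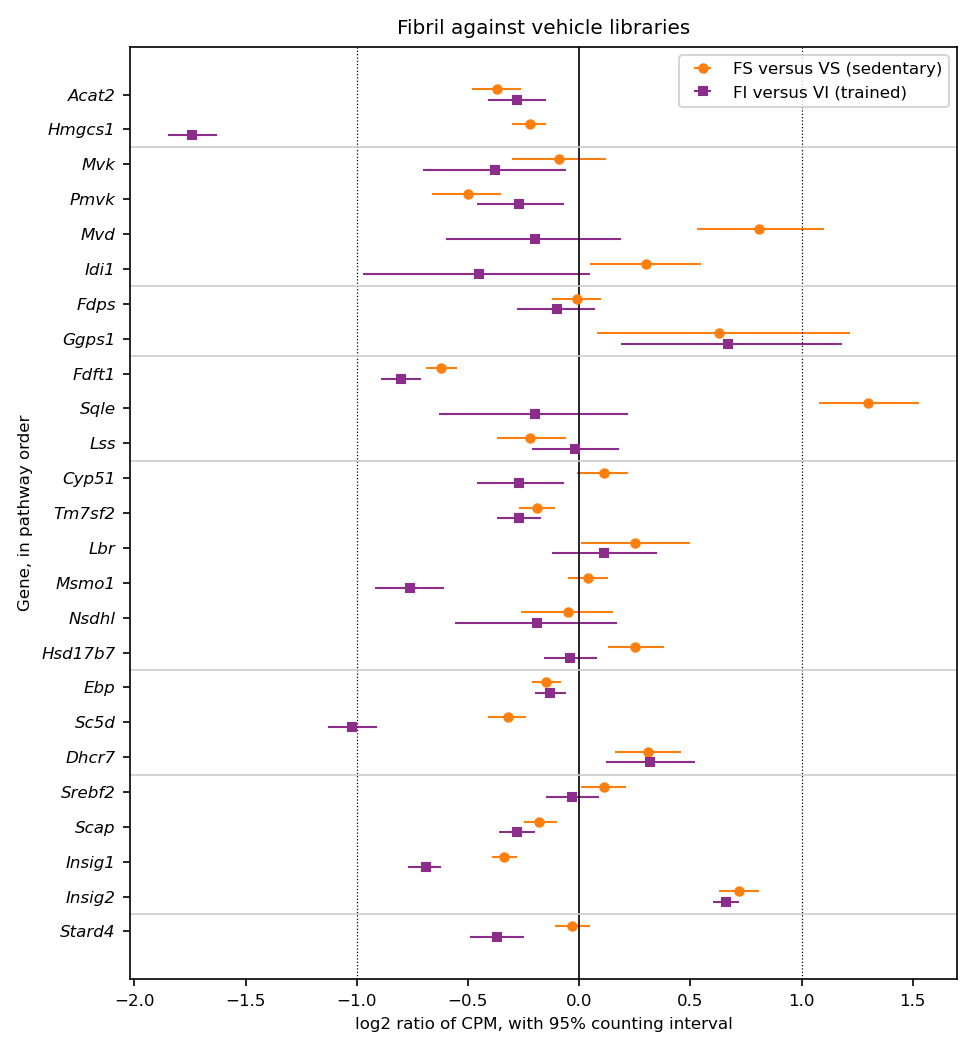
Log2 ratio of CPM in fibril against vehicle libraries for 25 genes in pathway order, circles for FS against VS and squares for FI against VI, with 95% counting intervals; dotted lines mark 2-fold. Sqle (1.30) and Mvd (0.81) are high in FS against VS, Hmgcs1 (−1.74) and Sc5d (−1.02) are low in FI against VI, and Insig2 lies above 0 in both.

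Genes around the route were read from lists chosen with earlier results of these data known. Their counts at an unadjusted p below 0.05 stand against 14.5% of all genes for IT and 21.1% for amyloidosis, and their calls against the shares of all genes given above. Among 15 other SREBP2 targets, 1 was lower with IT, Mmab, and 1 was higher, Lpin1, a phosphatidate phosphatase with 0.90 ± 0.14 (adjusted p = 0.034), and 6 had an unadjusted p below 0.05. With amyloidosis 0 were lower and 2 were higher, Lpin1 (1.74 ± 0.15, adjusted p = 0.002) and Fabp5, a fatty acid binding protein (1.58 ± 0.12, adjusted p = 0.002), and 8 had an unadjusted p below 0.05. Of 13 genes of SREBP processing and sterol-regulated degradation, such as the Golgi proteases that cut SREBP, 0 were called with IT and 4 had an unadjusted p below 0.05, against 5 with amyloidosis. With amyloidosis Ube2g2 (0.68 ± 0.11, adjusted p = 0.017) and Sec24d (0.84 ± 0.13, adjusted p = 0.015), a ubiquitin-conjugating enzyme and a coat protein of vesicles that leave the endoplasmic reticulum, were higher. The non-sterol branch, which makes dolichol, ubiquinone side chains and prenyl anchors, had 0 of 13 genes called with IT, 1 of them with an unadjusted p below 0.05, and Dhdds higher with amyloidosis (0.63 ± 0.13, adjusted p = 0.035), where 3 had an unadjusted p below 0.05.

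Of 10 genes of the liver X receptors and sterol efflux, 1 was lower with IT, Srebf1, which encodes SREBP1 (−0.70 ± 0.11, adjusted p = 0.034), and 5 had an unadjusted p below 0.05, against 4 for amyloidosis. Abcg8 and Abcg5, which pair to form the exporter that secretes sterols into bile, had positive coefficients for IT, 0.64 ± 0.12 (adjusted p = 0.052) and 0.57 ± 0.11 (adjusted p = 0.061), that did not pass. With amyloidosis 4 of the 10 were lower, among them Srebf1 (−0.78 ± 0.11, adjusted p = 0.012), Abcg5 (−0.55 ± 0.11, adjusted p = 0.037) and Abcg8 (−0.54 ± 0.12, adjusted p = 0.045). Of 13 genes of sterol esterification and transfer, 0 were called with IT, also 0 at an unadjusted p below 0.05 (5 for amyloidosis), and with amyloidosis Lipa was lower (−0.76 ± 0.11, adjusted p = 0.012) and Osbp higher (0.60 ± 0.12, adjusted p = 0.031). Ketogenesis, which uses mitochondrial HMG-CoA, had 0 of 7 genes called for either factor, with 1 for IT and 4 for amyloidosis at an unadjusted p below 0.05.

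Lists of liver state also held genes called with IT, against 0.672% higher and 0.663% lower over all genes tested. Of the clock genes in phase with Arntl, 2 of 4 tested were higher with IT, with median log2 ratios of 1.12 in the vehicle pair and 0.99 in the fibril pair. Of those in the opposite phase, 2 of 9 were lower, with medians of −0.68 and −0.18. Fasting genes had medians of 0.17 and 0.82 with 1 of 12 called higher, and fatty acid synthesis genes had medians of −0.48 and −0.25 with 1 of 12 called each way. At an unadjusted p below 0.05 for IT in the additive fit, these 4 lists in turn had 3 of 4, 4 of 9, 6 of 12 and 6 of 12 genes, against 14.5% of all genes. The mice lived under a cycle of light and dark on a commercial feed, and organs were taken within a day of the last training, but the sources used here give neither the clock hour of collection nor whether feed was withdrawn before it, and the part of these states in the lower levels of the route was not tested.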

How the data were processed

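Liver RNA of 4 groups was measured as 4 libraries, each a pool of 4 mice. The authors deposited raw read counts per gene, and FPKM values that equal count divided by gene length and library total: all 69722 deposited FPKM values above 0 lay within 0.001 of the recomputed ratio. The submitters' processing notes name fastp 0.23.2, STAR 2.5, HTSeq 0.6.1 and mm10, without their roles. The sources used here do not say whether strand was used in counting. Sequences came from RefSeq, GRCm38.p6.

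The tools were edgeR 4.0.16, DESeq2 1.42.0 and limma 3.58.1 in R 4.3.3, with matplotlib 3.10.9 in Python 3.11.15 for figures. TMM gave scaling factors of 0.9754 to 1.0246. Genes that reached 1 CPM in 2 or more libraries entered edgeR's quasi-likelihood fit (robust) of IT plus amyloidosis, with 3 coefficients and 1 residual degree of freedom, and p-values were adjusted over all of these genes by the Benjamini-Hochberg method at a threshold of 0.05. Log2 ratios of pairs used a prior of 0.5 counts and exact conditional binomial (Clopper-Pearson) intervals at 95%, those of CPM were Poisson intervals, and the difference of ratios had a normal interval from the reciprocal counts. The SE of a coefficient is its absolute value divided by the square root of its quasi-likelihood F statistic. It does not measure spread between mice. The scripts were tested on simulated data. All 26 members are named. From each other pathway list the called genes with the largest absolute coefficient for IT are named, at most 3 per list, and Abcg5 and Abcg8 are so named as called for amyloidosis. State and marker lists are given by counts, medians and sums, with a few markers named. Members and lists were chosen with earlier results of these data known. Alternatives were other scalings, filters, fold thresholds, tools and models, and leaving out each library. Proteins were not analysed here.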

Additional observations from a re-analysis of the deposited data

Results flagged for a closer look

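With IT, the vehicle and the fibril pair gave log2 ratios of opposite sign for 2 of the 25 genes, and with amyloidosis the sedentary and the trained pair did so for 7. The share of all genes with opposite signs was not counted, so these numbers cannot be called many or few. The difference was not tested in any of them, since each group has 1 library, and in 0 of the 9 cases did both counting intervals exclude 0. Hmgcs1, with 0.03 in the vehicle and −1.49 in the fibril pair, differed by −1.52 with IT, and Hsd17b7, with 0.21 and −0.08, differed by −0.29. The difference of FI against VI less FS against VS is the same quantity as that of FI against FS less VI against VS. The cases by IT and by amyloidosis are thus not separate results, and Hsd17b7 is counted under both. With amyloidosis, this difference was −1.5 for Sqle (1.30 in sedentary and −0.20 in trained mice) and −1.01 for Mvd (0.81 and −0.20). It was −0.80 for Msmo1 (0.04 and −0.76) and −0.75 for Idi1 (0.30 and −0.45). The smaller differences were −0.38 for Cyp51 (0.11 and −0.27), −0.29 for Hsd17b7 (0.25 and −0.04) and −0.14 for Srebf2 (0.11 and −0.03).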

How the results depend on the processing

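No paired analysis was possible because each group has 1 library. The number of pathway genes called lower with IT was 8 as reported and 15 without a filter on low counts (of 19939 genes tested, 740 of them called). It was 0 with IT as the sole factor in edgeR, where 0 of all 11760 genes were called. There 13 of the pathway genes had an unadjusted p below 0.05. Leaving out each library in turn left 3 libraries and the factor alone, with 1 library in a group. Few or no genes of any kind were called there, so counts are not given. Genes called higher with IT were 1 as reported and 0 with the factor alone. Over the 9 settings that use all libraries, Mvk, Idi1, Fdps, Cyp51, Msmo1, Nsdhl, Stard4 and Insig2 were called in 8, Dhcr7 in 6, Fdft1 and Sqle in 4, Tm7sf2 in 3, Lss, Sc5d and Insig1 in 2 and Mvd in 1. The number called lower was 10 with DESeq2 size factors and with limma-voom, and 12 with total counts. It was 9 without robust estimation and with the DESeq2 Wald test, and 7 with a filter at 5 CPM. Over all genes, 91 (filter at 5 CPM) to 276 (total counts) were called either way in these settings. Genes lower with amyloidosis were 1 as reported and 2 with DESeq2 size factors, with total counts and with the DESeq2 Wald test. They were 3 with limma-voom and without a filter. Over all genes, 470 (DESeq2 Wald test) to 1519 (no filter) were called either way in those settings. With the factor alone 0 pathway genes were lower, 8 of all 11760 genes were called and 1 pathway gene had an unadjusted p below 0.05. Genes higher with amyloidosis were 2 without a filter and 0 with the factor alone.

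Beyond 2-fold, 2 genes were higher in VI than VS (10.7% of all genes) and 2 in FI than FS (10.1%) without a filter, and 0 in FI than FS with FPKM and a pseudocount of 1. The gene beside Insig2 was Npc1l1, with 1 count in VS and in FS and 4 in VI and in FI, and its counting intervals held 0 in both pairs. At 1.5-fold, 10 genes were lower in VI than VS (6.3% of all genes), 1 was lower (7.47%) and 4 were higher (10.1%) in FS than VS, and 5 were lower (6.08%) and 2 higher (7.9%) in FI than VI. The SRE core with at most 1 mismatch was found in 10 genes. Leaving out a library turned the sign of some coefficients that were not called. For IT these were Hmgcs1 (−1.60 to 0.14), Scap (−0.26 to 0.01) and Ebp (0.04) without FI, and Hsd17b7 (−0.06 to 0.19) and Ebp (−0.09 to 0.05) without VS. For amyloidosis they were Mvd (−0.42 to 1), Sqle (−0.86 to 1.75) and Dhcr7 (−0.08 to 0.71) without FS, and Idi1 (−1.42 to 1.12) and Srebf2 (−0.14 to 0.22) without VI or FS. Without VS or FI they were Mvk (−0.89 to 0.33), Fdps (−0.79 to 0.65), Lss (−0.44 to 0.24), Cyp51 (−0.96 to 0.70), Tm7sf2 (−0.54 to 0.04), Msmo1 (−1.41 to 0.49), Nsdhl (−1.09 to 0.82) and Stard4 (−0.86 to 0.35). The coefficient of Idi1 for amyloidosis, 0.01 in the additive fit, also fell to 0 with DESeq2 size factors and to −0.05 with the DESeq2 Wald test. That of Cyp51, −0.07 in the additive fit, rose to 0.01 with the factor alone. The cause was not tested. Other scalings moved the median of all genes by less than 0.1. Calls rest on 4 pooled libraries.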
